A study of Mus musculus with 11 samples.

Results

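Thymocytes of 24-day-old mice that carried a MYC transgene and lacked the DNA methyltransferase Dnmt3b, taken before a tumor was visible, were compared with normal thymocytes of the same age. The 2 pre-tumor and 3 normal samples were chosen by their titles and are 5 of the 11 arrays of the series. The other 6 arrays hold RNA of thymic lymphomas, 3 with intact Dnmt3b and 3 without it. RNA of each sample was measured on 1 Affymetrix whole-transcript array, and the comparison addresses how far expression had already moved when the mice had no overt disease.

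All groups came from thymus of FVB mice and shared EμSR-tTA and Rosa26LOXPEGFP. EμSR-tTA is a tetracycline-controlled activator made in blood cells, and Rosa26LOXPEGFP is a reporter that Cre turns on. Normal thymocytes carried these together with Teto-Cre, with Dnmt3b+/+ and without the MYC transgene. Pre-tumor thymocytes carried Teto-MYC as well as Teto-Cre and were Dnmt3b-/-, the genotype that the Dnmt3b-deficient lymphomas also had. Wild-type lymphomas carried Teto-MYC without Teto-Cre and were Dnmt3bF/F, that is, floxed but undeleted. Lymphomas were collected once tumor burden could be seen. Per the labels' protocols, EGFP+ cells were isolated by sorting from pre-tumor thymi, whereas tumors went unsorted. The labels do not settle whether normal thymi went through the same sort. The MYC transgene, the Dnmt3b genotype and possibly the sort therefore all differ between the 2 groups, and their effects cannot be told apart here. The labels call the samples of a group biological replicates and name no batch.

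MYC is a transcription factor that binds the sequence CACGTG and is known for raising the genes of ribosome production, translation, nucleotide synthesis and cell division. Dnmt3b places new methyl groups on cytosines that precede guanines, and methylation of such sites in promoters and germline genes is associated with silencing. Most cells of a normal young thymus are double-positive thymocytes, which carry both CD4 and CD8, rearrange the T cell receptor alpha gene with the RAG recombinase and rest until they are selected.

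Levels are the deposited log2 values, so a difference of 1 is a 2-fold change. The table has a floor of 3.32, the log2 of 10, at which 23.62% to 25.65% of values on each array lie, and a difference from a group at the floor is a lower limit. Array medians ran from 4.55 to 4.62. Across 28939 probe sets, normal arrays correlated with each other at r of 0.986 to 0.991 and the 2 pre-tumor arrays at 0.988, while normal and pre-tumor arrays correlated at 0.913 to 0.965. No 2 arrays held identical values. In bulk RNA, fewer cells of a type and less RNA per cell cannot be told apart.

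The Dnmt3b probe set read 5.22, 5.32 and 5.30 on the normal arrays and 5.07 and 5.24 on the pre-tumor arrays. The groups overlapped (limma difference -0.12, SE 0.11, adjusted p = 0.542). The table does not say whether this probe set lies in the deleted part, so it does not check the genotype. The T cell receptor chain gene Cd3e was read at 10.25, 10.57 and 10.58 in normal and at 9.28 and 9.26 in pre-tumor thymocytes, well above the floor in both. It fell by 1.20 (adjusted p = 0.00418). The pan-leukocyte gene Ptprc read 8.52, 6.94 and 9.21 in normal and 9.63 and 9.56 in pre-tumor samples, with normal replicate 2 lowest.

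The following promoters belong to genes that changed and that the account returns to, and those of Ipo7, Wdr43 and Sycp1 were picked because they hold the MYC-binding letters CACGTG. Ipo7 (chr7:110018065-110018364, plus strand), Wdr43 (chr17:71615965-71616264, plus strand) and Sycp1 (chr3:102936051-102936350, minus strand) have these letters in capitals. In the promoter of Ment, listed on the array under the older symbol Gm128 (chr3:95241060-95241359, minus strand), each CG, the site that Dnmt3b can methylate, is in capitals, and the window holds 1 CACGTG as well. Each runs 5′ to 3′ from 250 bases before to 50 bases after the start of the gene, from RefSeq on GRCm38.p6.
Ipo7: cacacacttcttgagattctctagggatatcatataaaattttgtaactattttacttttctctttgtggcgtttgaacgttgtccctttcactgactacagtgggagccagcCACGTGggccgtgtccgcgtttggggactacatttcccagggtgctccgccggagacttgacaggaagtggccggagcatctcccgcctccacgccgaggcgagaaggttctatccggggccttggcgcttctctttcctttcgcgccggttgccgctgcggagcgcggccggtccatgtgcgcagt
Wdr43: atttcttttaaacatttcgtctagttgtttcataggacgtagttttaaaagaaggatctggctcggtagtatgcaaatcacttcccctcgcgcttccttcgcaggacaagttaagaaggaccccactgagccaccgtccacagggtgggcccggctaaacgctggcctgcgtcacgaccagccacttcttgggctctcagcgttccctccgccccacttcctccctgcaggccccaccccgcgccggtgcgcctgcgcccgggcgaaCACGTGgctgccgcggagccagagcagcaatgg
Sycp1: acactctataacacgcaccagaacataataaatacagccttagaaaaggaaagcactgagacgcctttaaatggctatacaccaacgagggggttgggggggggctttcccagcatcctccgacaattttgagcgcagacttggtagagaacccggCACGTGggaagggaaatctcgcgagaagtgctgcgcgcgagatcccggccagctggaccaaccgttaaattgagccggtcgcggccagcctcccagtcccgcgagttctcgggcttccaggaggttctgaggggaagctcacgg
Gm128: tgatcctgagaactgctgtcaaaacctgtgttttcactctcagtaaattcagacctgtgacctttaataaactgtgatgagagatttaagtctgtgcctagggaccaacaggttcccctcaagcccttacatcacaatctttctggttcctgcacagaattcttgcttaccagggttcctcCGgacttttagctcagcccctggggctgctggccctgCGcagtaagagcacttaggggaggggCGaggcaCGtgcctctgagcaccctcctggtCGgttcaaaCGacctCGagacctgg
Counted from the start of the gene, the CACGTG match begins at base -137 in Ipo7, -94 in Sycp1 and 17 in Wdr43. These 3 windows hold 24, 21 and 23 CG sites, and that of Ment holds 7. A match is a description of the letters and not evidence of binding.

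Many genes differed between the groups. Of 28939 probe sets, 5662 (19.6%) passed limma's Benjamini-Hochberg adjusted p under 0.05. In the pre-tumor arrays 2804 of these were higher (9.69%) and 2858 lower (9.88%). The rises were larger than the falls: the median difference was 1.16 among the probe sets called higher and -0.76 among those called lower, and 2486 probe sets (8.59%) were called and at least 2-fold changed, 1669 of them higher (5.77%) and 817 lower (2.82%). With 1 probe set per gene, 4205 of 19938 genes (21.1%) were called, 1927 higher (9.66%) and 2278 lower (11.4%). These last shares are the background against which the gene groups are read, with a median difference over all genes of -0.06. The scatter of group means shows the 2 clouds on either side of the diagonal.

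**Figure D1:**
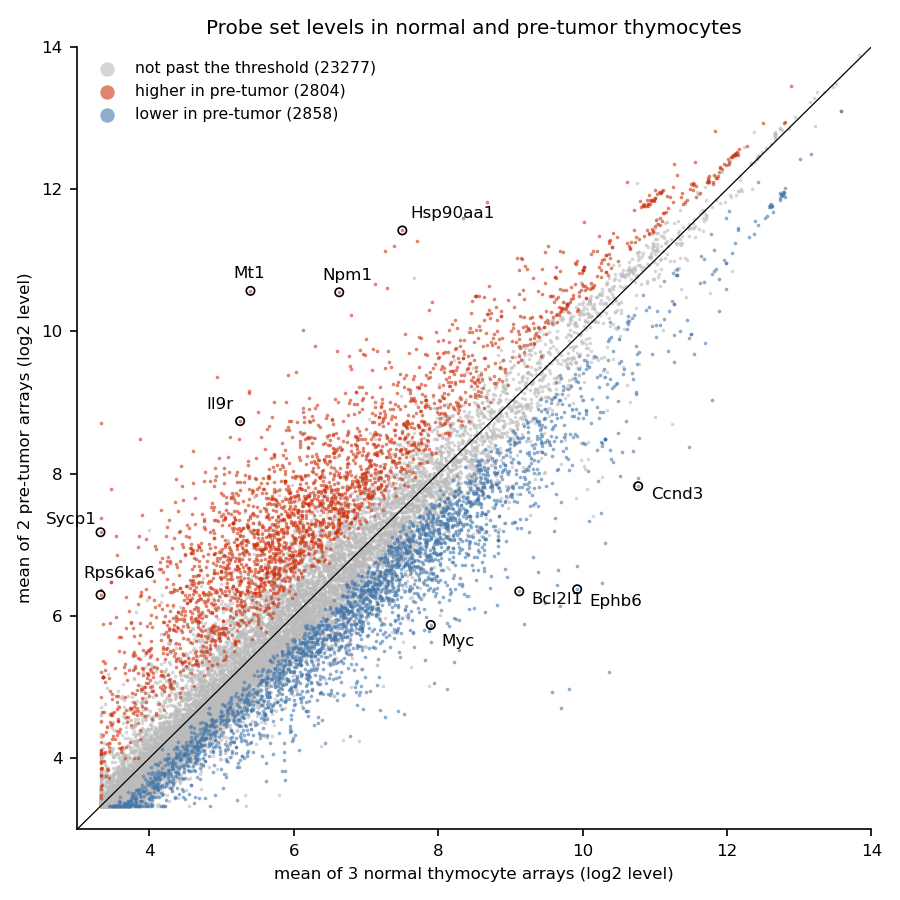
Each point is 1 of 28939 probe sets, with the mean log2 level of the 3 normal arrays on the x axis and of the 2 pre-tumor arrays on the y axis. The 2804 probe sets called higher (red) reach farther from the diagonal than the 2858 called lower (blue), and grey points did not pass the test.

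Pre-tumor replicate 2 lay farther from the normal mean than replicate 1 in 89.62% of the probe sets called higher and in 75.51% of those called lower, against 52.48% of all. Without it, 1712 probe sets were called (835 higher and 877 lower), and without normal replicate 2, which read lowest of the normal arrays in the probe sets called higher, 3868. When limma was fitted to the 5 arrays alone, so that the lymphomas no longer helped to estimate the spread, 2250 were called (850 higher and 1400 lower).

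Genes that build ribosomes were among the clearest rises. Of 51 measured genes of ribosome biogenesis, 36 rose and 0 fell, with a median difference of 1.03. Npm1, whose product nucleophosmin shuttles pre-ribosomes out of the nucleolus, read 7.08, 6.0 and 6.80 in normal and 10.30 and 10.81 in pre-tumor thymocytes. Both pre-tumor arrays lay above every normal array, by 15.2-fold in the mean (3.92 on the log2 scale, SE 0.36, adjusted p = 0.0014). Dkc1, the pseudouridine synthase of box H/ACA particles, read 5.59, 4.59 and 5.97 against 8.79 and 9.53, a 13.7-fold rise (adjusted p = 0.0035). Nop58, a core protein of the particles that methylate ribosomal RNA, rose 11.1-fold and the nucleolar protein gene Ncl 10.8-fold. Gnl3, which encodes nucleostemin, rose 9.74-fold. In these 5 genes the groups were separate and normal replicate 2 was the lowest array. Wdr43, a factor of small-subunit processing whose promoter is shown above, had tighter normals at 7.02, 6.85 and 7.42 and pre-tumor values of 9.64 and 9.86. It rose 6.28-fold (2.65 on the log2 scale, SE 0.23, adjusted p = 0.00124). Without pre-tumor replicate 2 the list had 26 rises and a median of 0.79, and in the fit of 5 arrays 19 rises and 1 fall. Dkc1, Nop58, Ncl and Gnl3 did not pass in that fit, with adjusted p from 0.0513 to 0.0714.

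Some genes of the finished ribosome and its initiation factors also rose. Of 49 measured cytosolic ribosomal protein genes, 16 rose and 1 fell, with a median difference of 0.34. Rpl5, which forms a particle with 5S RNA, read 9.49, 9.40 and 9.68 in normal and 10.98 and 11.41 in pre-tumor arrays, a rise of 3.18-fold (adjusted p = 0.00202). Rpl4 rose 2.89-fold, Rpl7 2.78-fold and Rpl23 2.09-fold, each with pre-tumor values above all normal ones. Rps3a1 rose 3.27-fold, but its 2 pre-tumor arrays read 7.97 and 9.69 and its adjusted p was 0.0364. Among 37 translation initiation factors 17 rose and 3 fell. Eif3a, the largest subunit of the eIF3 complex, went from 7.08, 6.09 and 7.13 to 9.39 and 9.92, 7.40-fold higher. Eif1a, which helps the ribosome scan for the start codon, went from 5.04, 5.08 and 5.04 to 7.20 and 7.54. Eif1a was 4.99-fold higher (adjusted p = 0.00202), and its normal arrays lay close together. Of 52 mitochondrial ribosomal protein genes 8 rose (15.4%), and of 52 genes of oxidative phosphorylation 9 (17.3%), beside 9.66% of all genes. Their medians were 0.33 and 0.05, with no falls. Without pre-tumor replicate 2 these medians were 0.11 and -0.05, and in the fit of 5 arrays 3 and 1 of the genes rose. When pre-tumor replicate 2 was left out, these 4 lists had 10, 10, 0 and 3 rises, and without normal replicate 2 the mitochondrial ribosome had 4.

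Protein folding and traffic across the nuclear envelope rose together with ribosome production. Of 26 chaperone genes 21 rose and 1 fell, and the median of 1.32 was the highest of the 55 lists. Hspd1, the mitochondrial folding chamber HSP60, read 7.44, 6.86 and 7.58 in normal and 10.32 and 10.90 in pre-tumor thymocytes, 9.96-fold higher (adjusted p = 0.0014). Hspa9, the mitochondrial HSP70, rose 5.38-fold, and Cct8, a subunit of the cytosolic folding ring, rose 4.45-fold. The cytosolic HSP90 gene Hsp90aa1 had the most spread among normals, at 7.65, 6.17 and 8.69, against 11.33 and 11.51. Its 15.1-fold rise passed with an adjusted p of 0.00977 but not without pre-tumor replicate 2 (0.076) or in the fit of 5 arrays (0.0919). Of 41 nuclear transport genes 28 rose and 1 fell, with a median of 1.03. The importin gene Ipo7, which carries ribosomal proteins into the nucleus, read 6.13, 4.24 and 5.77 against 8.88 and 9.37, a 13.4-fold rise. Kpna3, Xpo1, Cse1l, Xpo4 and Ipo11, which encode import and export receptors, rose between 4.16-fold and 7.76-fold. With pre-tumor replicate 2 omitted, 10 chaperone and 15 transport genes rose, and in the fit of 5 arrays 10 and 11, with Ipo7 at an adjusted p of 0.0732.

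Genes that supply nucleotides and one-carbon units also rose. Of 27 genes of nucleotide and one-carbon synthesis 19 rose and 1 fell, with a median of 0.98. Gmps, which makes GMP, rose 4.78-fold, the purine salvage gene Hprt 3.83-fold, and Ppat, the first enzyme of purine synthesis, 3.32-fold. Mthfd1l, a mitochondrial enzyme of the folate cycle, read 6.59, 6.98 and 6.79 in normal and 8.49 and 8.31 in pre-tumor thymocytes, 3.05-fold higher (adjusted p = 0.000937). Shmt1, which moves a carbon from serine to folate, rose 2.79-fold. In polyamine synthesis Srm and Odc1, a classic MYC target, rose 2.82-fold and 2.54-fold, and Oaz2, an antizyme that restrains ornithine decarboxylase, fell by 1.06. Asns, the asparagine synthetase, went from 5.18, 4.72 and 5.18 to 7.87 and 8.29, 8.30-fold higher. In the same list of amino acid response and tRNA synthetase genes 10 of 25 rose and none fell. Uptake of amino acids and iron was mixed, with 4 of 18 genes called higher, 1 lower, 13 not called and a median of 0.07. Tfrc, the transferrin receptor that brings in iron, rose 11.3-fold, and the amino acid transporter gene Slc7a5 2.26-fold, while Ftl1, the light chain of the iron store ferritin, fell by 1.18 (adjusted p = 0.0109). On omitting pre-tumor replicate 2, the nucleotide list had 12 rises and 1 fall, the tRNA synthetase list 6 rises and the uptake list 2 rises and 0 falls, with Ftl1 and Tfrc at adjusted p of 0.0886 and 0.0678.

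More glycolytic genes rose than fell. Of 25 measured, 8 rose (32%) and 2 fell (8%), beside 9.66% and 11.4% of all genes, with a median of 0.45. Tpi1 read 8.89, 8.89 and 8.82 in normal and 10.19 and 10.24 in pre-tumor arrays, a 2.54-fold rise (adjusted p = 0.00165), and Pgam1, Pgk1 and Hk2 rose 2.25-fold, 2.21-fold and 2.02-fold. The largest change of the list ran the other way. Ldhb, the lactate dehydrogenase subunit of oxidative tissues, went from 9.68, 9.62 and 9.66 to 7.07 and 6.22, and it fell by 3.01 on the log2 scale (adjusted p = 0.0387). Its call was lost on leaving out any 1 of the 5 thymocyte arrays, with adjusted p from 0.076 to 0.24, and a dimmer Ldhb probe set differed by -1.68 without passing (adjusted p = 0.0529). In sterol and fatty acid synthesis 4 of 23 genes rose (17.4%) and 2 fell (8.7%), beside 9.66% and 11.4% of all genes. Acaca, which commits carbon to fatty acids, rose 3.48-fold, while Srebf1, a regulator of the pathway, fell by 1.12. In the fit lacking pre-tumor replicate 2, 5 glycolytic genes rose and 1 fell, and 1 sterol gene rose.

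**Figure D2:**
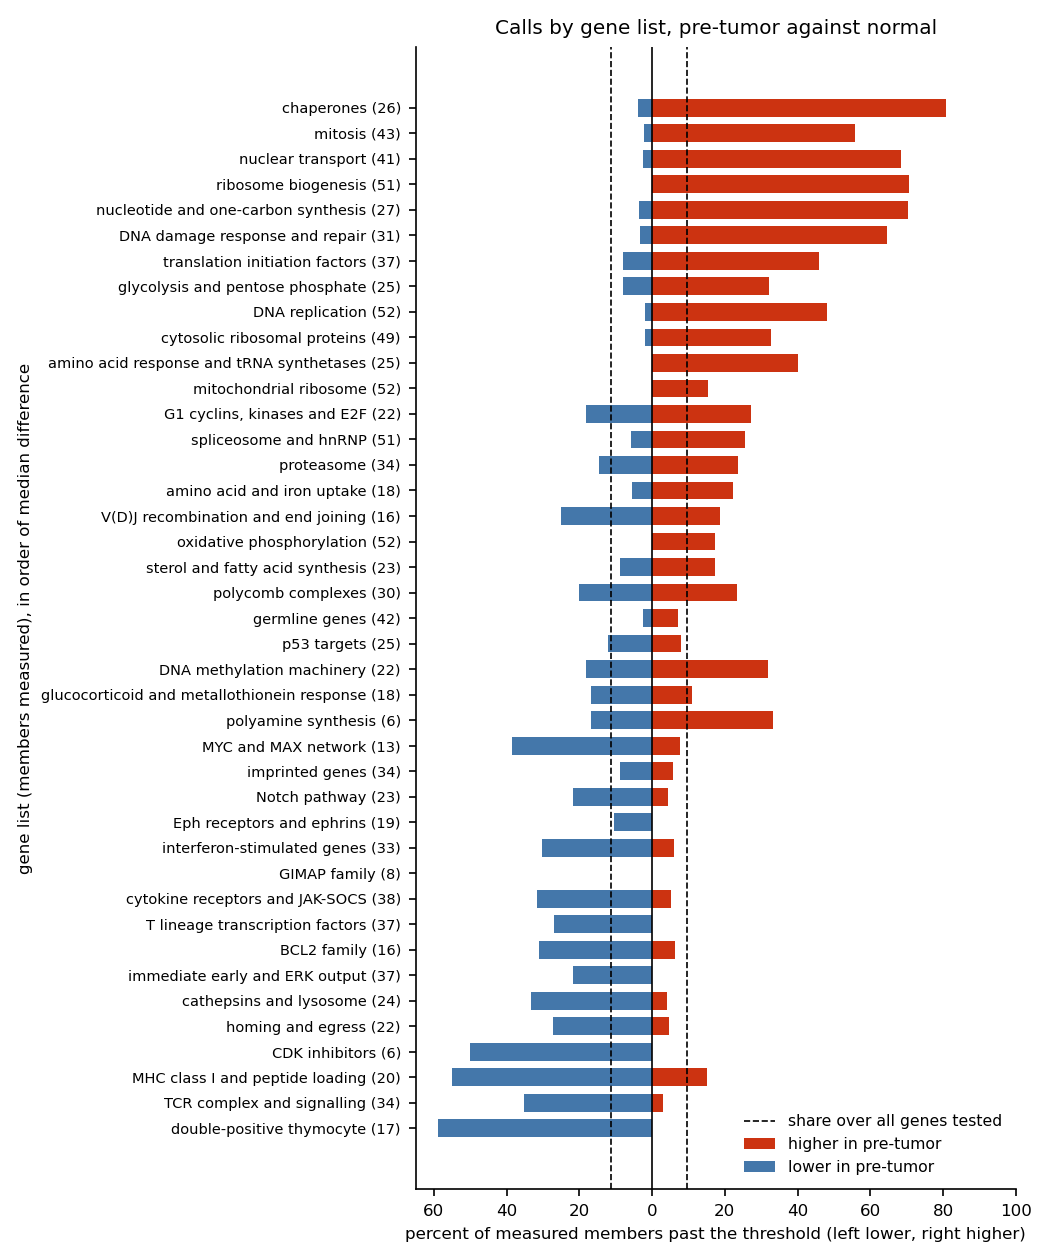
Bars give the percent of measured members of each of the 40 pathway lists and the double-positive thymocyte list that were called higher (right, red) or lower (left, blue) in pre-tumor thymocytes, with lists in order of their median difference and the number measured in parentheses. Dashed lines mark the shares over all genes, 9.66% higher and 11.4% lower, and the bars of chaperones (80.8%), ribosome biogenesis (70.6%) and nucleotide synthesis (70.4%) reach farthest to the right.

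Many genes of cell division were higher. Of 43 mitotic genes 24 rose and 1 fell, with a median of 1.23, and of 52 DNA replication genes 25 rose and 1 fell, with a median of 0.44. Bub1, a kinase of the spindle checkpoint, read 4.41, 3.62 and 5.03 in normal and 7.0 and 8.20 in pre-tumor thymocytes, 9.48-fold higher (adjusted p = 0.00774). Kif11, the motor that separates spindle poles, rose 8.10-fold, and Top2a, which untangles chromosomes, 7.05-fold by the brightest of its probe sets, whereas another Top2a probe set differed by -0.72 without passing (adjusted p = 0.33). Pola1, the catalytic subunit of the polymerase that primes DNA synthesis, went from 4.73, 4.36 and 5.62 to 7.78 and 8.37, 9.01-fold higher, and Dbf4, the activator of the CDC7 kinase, rose 5.37-fold. In these 5 genes pre-tumor replicate 2 was the highest of the thymocyte arrays. Without it 4 mitotic genes rose and 1 fell and 5 replication genes rose, and Bub1 and Kif11 gave adjusted p of 0.0676 and 0.0697. In the fit of 5 arrays 2 mitotic and 3 replication genes rose.

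Genes of DNA damage signalling and repair rose as well, 20 of 31 with 1 fall and a median of 0.94. Chek1, the kinase that halts the cycle when replication stalls, went from 5.17, 3.98 and 5.34 to 7.67 and 8.11, 8.32-fold higher. The damage kinases Atm and Atr rose 8.41-fold and 5.40-fold. Blm, a helicase that resolves recombination intermediates, rose 5.05-fold, from 4.68, 4.19 and 4.88 to 6.72 and 7.12 (adjusted p = 0.00246). From the list of V(D)J recombination and end joining, where 3 of 16 genes rose and 4 fell, Xrcc5, the Ku subunit that binds broken ends, rose 3.98-fold and Prkdc, its kinase partner, 4.02-fold. Of 25 p53 targets 2 rose and 3 fell, shares of 8% and 12% that lay near the 9.66% and 11.4% of all genes. Ccng1, a p53-induced cyclin, rose 4.17-fold, and Btg2, an antiproliferative gene, fell from 10.42, 10.38 and 10.47 to 8.38 and 7.94. Without pre-tumor replicate 2 the repair list had 9 rises, the recombination list 1 and the p53 list 1 rise and 1 fall, and Atm and Atr gave adjusted p of 0.0739 and 0.0528.

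Regulators of the G1 phase did not all follow the replication genes. Of 22 genes for G1 cyclins, kinases and E2F factors 6 rose and 4 fell. Ccnd3, the D-type cyclin of dividing thymocytes, read 10.85, 10.69 and 10.76 in normal and 8.32 and 7.33 in pre-tumor cells, and it fell by 2.94 (7.70-fold, SE 0.36, adjusted p = 0.00288). E2f2, another gene at high level in normal thymus, fell by 1.29, while E2f5 rose 2.46-fold and Ccne2 3.79-fold. Of 6 measured CDK inhibitor genes 3 fell and 0 rose. Cdkn1b, which encodes p27, read 9.16, 9.06 and 9.17 against 7.70 and 7.74, and it fell by 1.41 (adjusted p = 0.00227), while a dimmer Cdkn1b probe set differed by -1.08 without passing (adjusted p = 0.136). Cdkn2d, which encodes p19INK4d, fell by 2.02 (adjusted p = 0.00949). Cdkn2a, which encodes p16INK4a and p19ARF, went from 5.45, 5.02 and 5.02 to 4.77 and 4.54 (difference -0.51, adjusted p = 0.0377). When pre-tumor replicate 2 was left out, the first list had 3 rises and 2 falls, and Cdkn1b was the only CDK inhibitor still called, with Cdkn2d at 0.0797 and Cdkn2a at 0.263.

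The mouse Myc probe set was lower in the cells with the MYC transgene. It read 7.79, 8.13 and 7.77 in normal and 5.87 on both pre-tumor arrays, and it fell by 2.02 (4.07-fold, SE 0.26, adjusted p = 0.0032). The call was kept in every alternative. Whether the probe set also detects transcripts of the transgene was not tested. Of the 13 genes for MYC, MAX and their partners 5 fell and 1 rose. The MAX-binding antagonists Mxd4, Mxd3 and Mxd1 fell by 1.86, 1.09 and 0.82, and Mlx by 0.87. Mga, which pairs with MAX to repress, rose 4.02-fold from 5.63, 4.52 and 6.03 to 7.20 and 7.60, and was not called without either pre-tumor replicate (adjusted p 0.0517 and 0.148) or in the fit of 5 arrays (0.129).

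Of 16 measured genes of the BCL2 family 5 fell and 1 rose, with a median of -0.45. Bcl2l1, which encodes the survival protein BCL-XL of double-positive thymocytes, read 9.12, 9.22 and 9.03 in normal and 6.80 and 5.89 in pre-tumor cells. It fell by 2.78 (6.86-fold, SE 0.23, adjusted p = 0.00111). Mcl1, another survival gene, fell by 1.01 and the death-promoting genes Bmf and Bak1 by 1.72 and 0.68, while Bid, which also promotes death, rose 1.76-fold. Bcl2 itself went from 6.46, 6.33 and 6.43 to 6.14 and 5.60, at an adjusted p of 0.0493 that was 0.282 without pre-tumor replicate 2. Without that array the list had 3 falls and 0 rises.

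**Figure D3:**
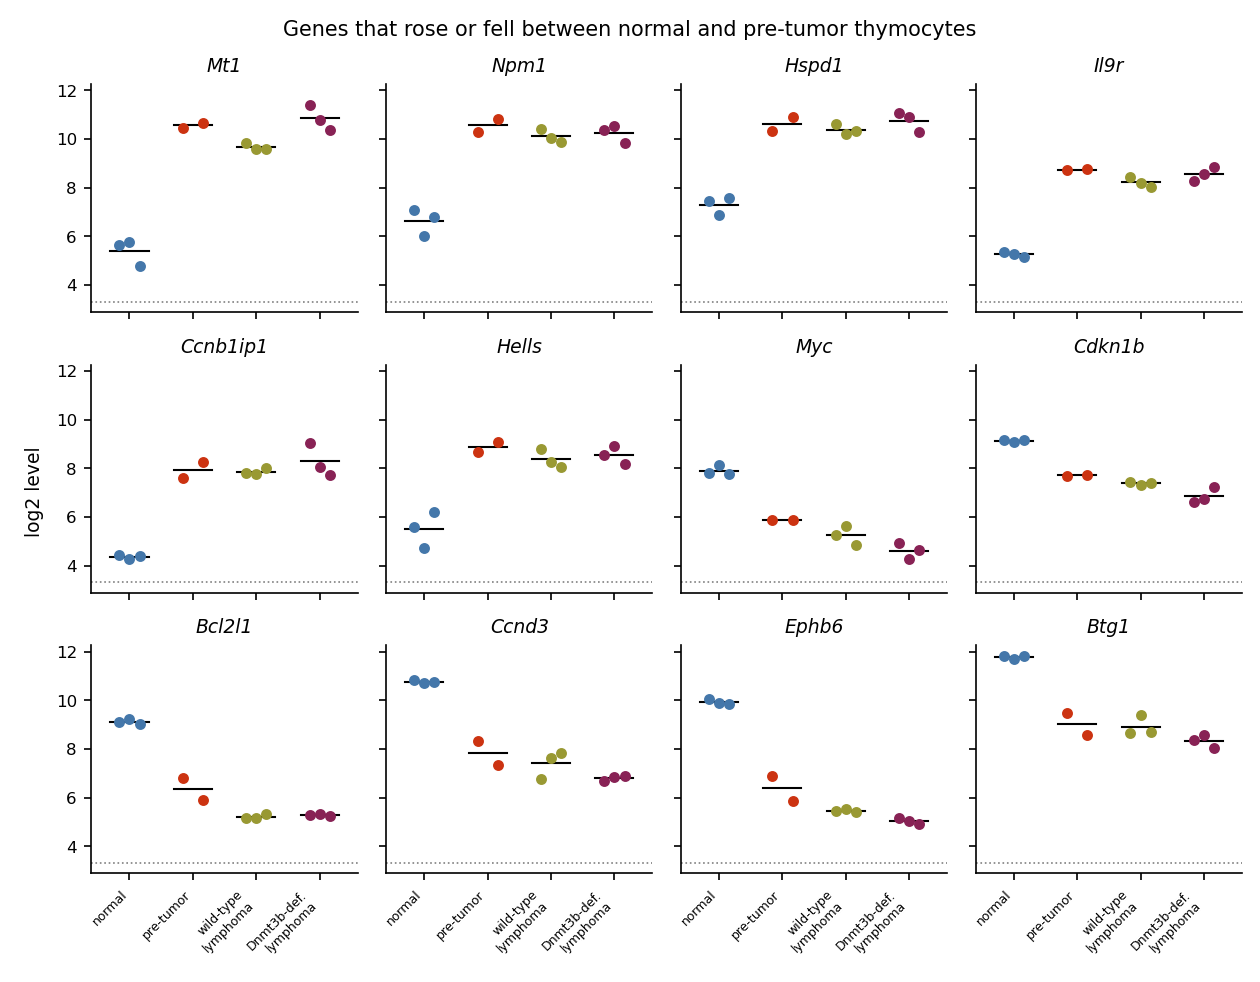
Panels show log2 levels of named genes on each array of the normal, pre-tumor, wild-type lymphoma and Dnmt3b-deficient lymphoma groups, with the group mean as a bar and the floor of 3.32 as a dotted line. Npm1 and the other rising genes sit higher in both pre-tumor arrays than in any normal array, and Myc, at 5.87 on both pre-tumor arrays, sits below the 3 normal arrays.

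Genes that mark the double-positive thymocyte were lower. Of 17 measured genes 10 fell and 0 rose, and the median difference of -1.60 was the lowest of the 55 lists. Pre-tumor replicate 2 read lower than replicate 1 in most of them, as the plot of these genes by array shows. Endou, an endonuclease restricted to these cells in thymus, read 9.72, 9.58 and 9.64 in normal and 6.94 and 5.92 in pre-tumor samples, and it fell by 3.21 (9.29-fold, adjusted p = 0.0058). Dntt, which adds bases at receptor gene joints, went from 9.68, 9.62 and 9.82 to 8.12 and 7.09, and it fell by 2.11. Cd4 went from 10.78, 10.72 and 10.74 to 9.41 and 8.87 and fell by 1.60 (adjusted p = 0.0102). Cd1d1, which presents lipids to NKT cells during their selection, fell by 1.85 with an adjusted p of 0.000978, and Ets2 fell by 2.19. Aqp11 fell by 2.07, and Rag2, at the floor in pre-tumor replicate 2, by at least 1.96.

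Several defining genes of that stage had a wide gap between the pre-tumor arrays and did not pass. Their lymphoma arrays, whose spread the fit also uses, varied widely too. For Cd8a the SD was 0.08 in normal and 0.77 in pre-tumor arrays, 1.565 in wild-type and 0.96 in Dnmt3b-deficient lymphomas. Rag1, the catalytic subunit of the recombinase, read 11.09, 11.16 and 11.45 in normal and 9.61 and 7.77 in pre-tumor samples. Both pre-tumor values lay below the normal ones, with a difference of -2.54 at an adjusted p of 0.124. Cd8a read 12.08, 11.98 and 12.14 against 11.39 and 10.30 (adjusted p = 0.44), and Cd8b1 11.80, 11.76 and 11.74 against 11.12 and 9.97 (0.448). With pre-tumor replicate 2 omitted, the list had 2 falls and a median of -1.19, and Cd4, Dntt and Endou gave adjusted p of 0.0905, 0.0844 and 0.0528. In the fit of 5 arrays 5 of the 17 fell. Of 18 measured genes of early double-negative thymocytes 1 rose and 1 fell (2 and 0 without pre-tumor replicate 2), and of 18 genes of mature single-positive cells 0 rose and 3 fell, none of them called by limma without that array. With all arrays, 5.56% of the early list rose and 5.56% fell, and 16.7% of the mature list fell, beside 9.66% and 11.4% of all genes. The early list had a median difference of -0.14. Its 1 rise was that of the surrogate light chain gene Igll1, expressed in early lymphoid cells. Igll1 rose 2.63-fold from 4.53, 4.55 and 4.92 to 6.57 and 5.55 (limma adjusted p = 0.0155), and did not pass in the fit of 5 arrays (0.126).

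**Figure D4:**
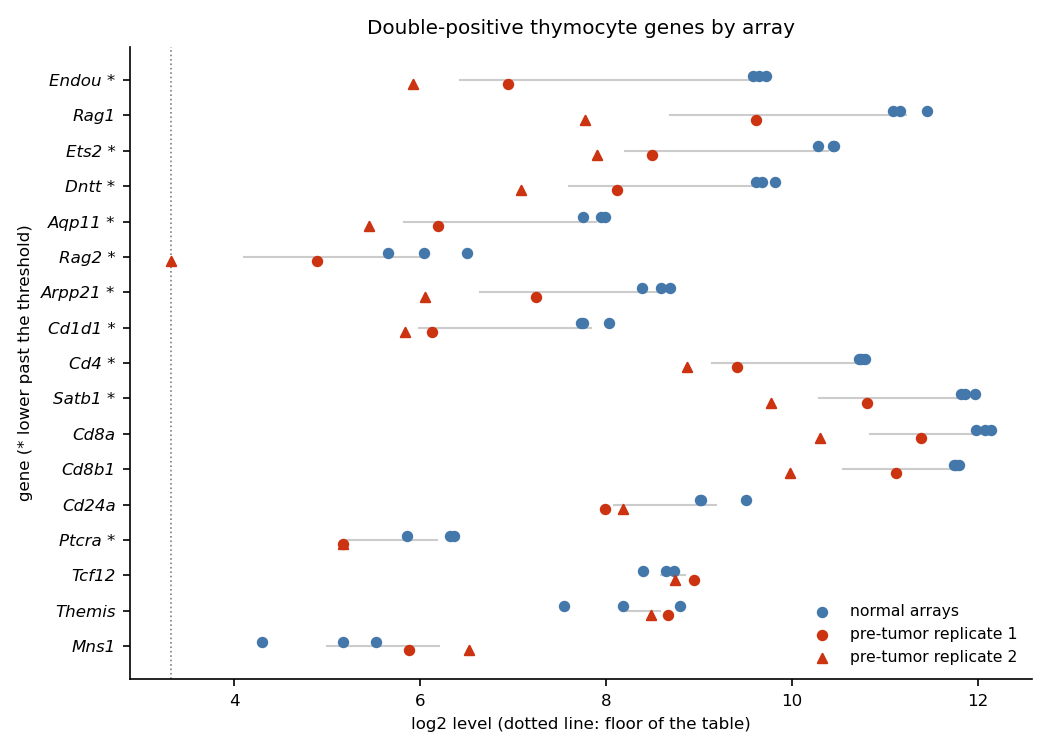
Log2 levels of the measured double-positive thymocyte genes are given for the 3 normal arrays (blue) and for pre-tumor replicates 1 and 2 (red circle and triangle), with an asterisk on the 10 genes that fell past the threshold. Both pre-tumor points lie left of all normal points in 14 of the 17 genes, where 27.3% of all probe sets had both pre-tumor arrays below every normal array.

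Transcription factors and signalling genes of the T lineage fell more often than they rose. Among 37 lineage transcription factors 10 fell and 0 rose, with a median of -0.42. Bcl6, a repressor of cytokine and cell cycle genes, read 8.30, 8.07 and 8.47 in normal and 6.15 and 4.89 in pre-tumor cells, and it fell by 2.76. Satb1, an organizer of thymocyte chromatin, went from 11.86, 11.82 and 11.97 to 10.81 and 9.77 and fell by 1.60. Bcl11b, Myb, Sox4 and Id2 were also called lower. On omitting pre-tumor replicate 2, 2 of the factors fell (without normal replicate 2, 6), and Satb1 gave an adjusted p of 0.216. Of 34 genes of the T cell receptor complex and its signalling 12 fell and 1 rose, with a median of -0.72. Lat, the adaptor that links the receptor to its effectors, read 11.33, 11.38 and 11.34 against 10.19 and 9.82, and it fell by 1.34. Plcg1, which Lat recruits, fell by 1.32, Sla2, a dampener of receptor signals, by 1.56, and Cd247, the zeta chain, by 1.33. Malt1, a protease of the NF-kappaB arm, was the 1 gene to rise, 2.76-fold. In the fit lacking pre-tumor replicate 2, 3 of these genes fell and 0 rose.

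The list of immediate early and ERK output genes had falls and no rises. Of 37 immediate early and ERK-responsive genes 8 fell (21.6%, against 11.4% of all genes), 0 rose and 29 were not called, with a median of -0.46. Btg1, an antiproliferative gene that the list includes, read 11.82, 11.71 and 11.83 in normal and 9.49 and 8.57 in pre-tumor cells. It fell by 2.75 (6.75-fold, adjusted p = 0.00258), and its fall is no sign of weaker receptor stimulation by itself. Dusp10, a phosphatase of stress kinases, fell by 1.70. Dusp6, the phosphatase of ERK, fell by 2.60, with an adjusted p of 0.0538 when pre-tumor replicate 2 was left out. Nr4a1, a marker of receptor signal strength, went from 9.54, 9.65 and 9.60 to 8.55 and 8.15 and fell by 1.25. Without pre-tumor replicate 2, 3 of these genes fell, and without pre-tumor replicate 1 or normal replicate 2, 5. Of 23 Notch pathway genes 5 fell and 1 rose. Notch3 read 6.98, 6.87 and 6.89 against 5.83 and 5.80, and its coactivator Maml1 fell by 1.14. Ptcra, the pre-T alpha chain and a Notch target, fell by 1.01, while Adam10, the protease that cuts Notch at the surface, rose 3.01-fold. When pre-tumor replicate 2 was left out, the Notch list had 3 falls and 0 rises.

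Some receptors that place and retain thymocytes fell too. Of 22 homing and egress genes 6 fell, 1 rose and 15 were not called, with a median of -0.51. Plxnd1, a semaphorin receptor that guides thymocytes from cortex to medulla, read 9.85, 10.05 and 9.87 in normal and 7.37 and 6.04 in pre-tumor samples and fell by 3.22. Cxcr4, which holds thymocytes in the cortex, fell by 1.87 (adjusted p = 0.00442), and Itgae by 1.03. Among 19 Eph receptor and ephrin genes 2 fell (10.5%, near the 11.4% of all genes) and 0 rose, and both falls were large. Ephb6, a receptor without kinase activity that T cells express, read 10.04, 9.89 and 9.85 against 6.89 and 5.85, and it fell by 3.55 (11.7-fold, SE 0.26, adjusted p = 0.000937). Epha2 went from 7.63, 7.40 and 7.56 to 4.57 and 4.66 and fell by 2.92. The homing list had 3 falls and 0 rises without pre-tumor replicate 2, and the Eph list kept its 2.

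Of 38 cytokine receptor, JAK and SOCS genes 12 fell and 2 rose. Ifngr1, a chain of the interferon gamma receptor, read 10.30, 9.87 and 10.06 in normal and 8.27 and 7.80 in pre-tumor cells and fell by 2.04 (adjusted p = 0.00142), and Il4ra fell by 2.42. Il9r, the receptor of a T cell growth factor, was chosen among the 15 largest rises and went from 5.36, 5.27 and 5.14 to 8.72 and 8.75. It was 11.2-fold higher (SE 0.17 on the log2 scale, adjusted p = 0.000426). With pre-tumor replicate 2 omitted, the cytokine receptor list had 5 falls and 0 rises, and without normal replicate 2, 9 falls and 0 rises.

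Among genes of antigen presentation and of the interferon response more fell than rose. Of 20 MHC class I and peptide loading genes 11 fell and 3 rose, with a median of -0.64. H2-T10, a nonclassical class I gene, read 10.33, 10.27 and 10.15 in normal and 7.86 and 7.04 in pre-tumor samples, and it fell by 2.80. The peptide pump genes Tap1 and Tap2 fell by 1.50 and 1.58. The chaperone Canx, which works on all glycoproteins, rose 5.40-fold and Erap1, a peptide trimmer, 6.19-fold. On omitting pre-tumor replicate 2, no gene of this list was called lower by limma, where 3 rose, and 6 fell without normal replicate 2. Of 33 interferon-stimulated genes 10 fell and 2 rose, and 21 were not called. Zbp1, a sensor of nucleic acids, went from 6.89, 7.02 and 6.91 to 5.38 and 5.11 and fell by 1.69, and Usp18 and Irf9 fell by 1.64 and 1.14. Ifnz, an interferon gene named after its values were seen, read 5.95, 5.96 and 5.93 against 4.46 and 4.45, and it fell by 1.49 (adjusted p = 9.72e-05). Of 24 cathepsin and lysosome genes 8 fell and 1 rose. The protease genes Ctsl and Ctsd fell by 2.75 and 1.93, and Cst3, an inhibitor of such proteases, by 1.48. In the fit lacking pre-tumor replicate 2, the interferon list had 6 falls and 0 rises and the lysosome list 2 falls and 0 rises.

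Few markers of other cells of the thymus were called. The share called lower was 0% to 17.6% in the neutrophil, endothelial, NK, stromal and macrophage lists, around the 11.4% of all genes. It was 20% in the thymic epithelial and erythroid lists, 28.6% (2 of 7 genes) in the platelet list and 31.2% in the dendritic cell list. Called or not, both pre-tumor arrays lay below every normal array in 27.3% of all probe sets. They did so in 11 of 15 thymic epithelial, 9 of 16 dendritic, 8 of 17 macrophage and 8 of 14 stromal genes. For erythroid, platelet, NK, endothelial and B cell genes the counts were 6 of 10, 5 of 7, 5 of 14, 4 of 12 and 1 of 16. Of 17 macrophage genes 3 fell and 0 rose, all of them chains of complement C1q: C1qc read 5.25, 5.43 and 4.98 in normal and 3.72 and 4.03 in pre-tumor samples. The mean level of the list was 4.60 to 4.78 in normal and 3.99 and 4.20 in pre-tumor arrays. Lyz2, a defining gene of myeloid cells, went from 8.09, 7.99 and 7.55 to 4.94 and 5.08 without passing (adjusted p = 0.218). The fit pools the spread of all 4 groups. For Lyz2 the SD was 0.29 in normal and 0.10 in pre-tumor arrays, against 2.24 in wild-type and 1.94 in Dnmt3b-deficient lymphomas. None of 16 neutrophil genes was called by limma, though the mean of the list was 4.42 to 4.82 in normal and 3.77 and 3.80 in pre-tumor arrays. In 12 of the 16 both pre-tumor arrays lay below every normal array, a larger share than the 27.3% of all probe sets. In the fit of 5 arrays 5 neutrophil genes fell and 0 rose. Of 16 dendritic cell genes 5 fell, among them the MHC class II genes H2-Ab1 and H2-Aa by 1.63 and 1.38. Of 14 NK cell genes 2 fell, and of 15 thymic epithelial, 14 stromal, 12 endothelial and 10 erythroid genes 3, 2, 1 and 2. Of 16 B cell genes 1 rose and 0 fell, and 3 rose without pre-tumor replicate 2. The part of these cells in the falls of antigen presentation, lysosome and interferon genes was not tested. Without pre-tumor replicate 2 no dendritic, epithelial, stromal or endothelial gene was called by limma, and 2 macrophage genes were.

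The enzymes and readers of DNA methylation were split. Of 22 measured genes 7 rose and 4 fell, with a median of -0.06. Hells, a remodeller that opens DNA to methyltransferases, read 5.60, 4.73 and 6.18 in normal and 8.67 and 9.06 in pre-tumor thymocytes, 10.3-fold higher (adjusted p = 0.00327, and 0.0548 in the fit of 5 arrays). Qser1, a protector of unmethylated regions, went from 5.20, 3.96 and 5.24 to 6.83 and 6.72, 3.93-fold higher, and a second probe set of it rose by 1.54 (adjusted p = 0.0277). Its adjusted p of 0.0265 was 0.136 without pre-tumor replicate 2 and 0.0967 without replicate 1. Zbtb33, a reader of methylated DNA, rose 3.52-fold and the mismatch glycosylase gene Mbd4 1.78-fold, while Gadd45a, linked to demethylation, fell by 0.84 and the reader Zbtb4 by 0.83. The maintenance enzyme Dnmt1 read 9.37, 9.47 and 9.42 against 9.64 and 9.68, a rise of 0.24 (adjusted p = 0.0358) that was lost in 13 of 21 alternatives. Dnmt3a, the other de novo enzyme, read 7.90, 7.82 and 7.84 against 7.65 and 7.47 (adjusted p = 0.753). When pre-tumor replicate 2 was left out, the list had 2 rises and 0 falls, and in the fit of 5 arrays the balance turned, with 1 rise and 6 falls.

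Ment (Gm128), a gene known as a target of Dnmt3b in this lymphoma model, was higher by a small amount. Its probe set read 4.47, 4.80 and 4.44 in normal and 5.19 and 5.20 in pre-tumor thymocytes. The groups did not overlap, and the rise of 0.63 was 1.54-fold (SE 0.14, adjusted p = 0.0205). It did not pass without pre-tumor replicate 2 (0.125), without pre-tumor replicate 1 (0.071), or without normal replicate 1 or 3 (0.0576 and 0.0539). In the lymphomas the same probe set read 3.86 to 4.07 with intact Dnmt3b and 4.91 to 5.28 without it. Wild-type lymphomas were 1.21 below the pre-tumor arrays (adjusted p = 0.0446), and Dnmt3b-deficient lymphomas differed from them by -0.07 (adjusted p = 1.00). The first of these calls was lost in 8 of the fits that omit 1 array, with an adjusted p reaching 0.1465 without pre-tumor replicate 2. As the promoter shown above gives, its window holds 7 CG sites, where the median over 19116 windows was 15.

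Few germline and imprinted genes, groups known for methylated promoters in body cells, were called, and most were dim. Of the germline genes 35 read below 5 on all 5 thymocyte arrays and 17 were at the floor on all normal arrays, and of the imprinted genes 20 read below 5 on all 5, so a low count does not show that they were unchanged. Of 42 measured germline genes 3 rose (7.14%) and 1 fell (2.38%), with a median difference near 0. Ccnb1ip1, a ubiquitin ligase of meiotic crossover, went from 4.43, 4.25 and 4.40 to 7.59 and 8.25, 11.8-fold higher (adjusted p = 0.00179), and reached 7.85 and 8.29 in the wild-type and Dnmt3b-deficient lymphomas in the mean. Mlh3, a mismatch repair gene of meiosis, rose 2.75-fold. Tdrd5, of the piRNA pathway, went from 3.97, 4.28 and 4.28 to 3.63 and the floor. Sycp1 is described with the genes that left the floor. Of 34 imprinted genes 2 rose (5.88%) and 3 fell (8.82%), below the 9.66% and 11.4% of all genes. H13, which encodes a signal peptide peptidase, fell most, from 9.21, 9.37 and 9.42 to 8.12 and 7.90. With pre-tumor replicate 2 omitted, limma called 2 germline genes, both higher, and 1 imprinted gene, lower.

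Of 34 proteasome genes 8 rose (23.5%) and 5 fell (14.7%), beside 9.66% and 11.4% of all genes. Psmd1, a subunit of the regulatory particle, went from 6.88, 6.58 and 7.06 to 8.74 and 8.95, 4.01-fold higher (adjusted p = 0.00231). Of 51 spliceosome and hnRNP genes 13 rose (25.5%) and 3 fell (5.88%). Among them Syncrip, an RNA-binding protein gene, rose 4.29-fold. Of 30 polycomb genes 7 rose (23.3%) and 6 fell (20%). Suz12, a core subunit of the complex that methylates histone H3 lysine 27, rose 4.73-fold. Cbx8, of the complex that reads this mark, fell by 1.32. None of 8 GIMAP genes, small GTPases of lymphocytes, passed limma's threshold. In the fit of 5 arrays the proteasome had 2 rises and 1 fall, the spliceosome 1 and 1, the polycomb list 0 and 4, and the GIMAP list 0 and 2. Syncrip had a limma adjusted p of 0.0551 there. On omitting pre-tumor replicate 2, the proteasome had 2 rises and 2 falls, the spliceosome 2 and 3, and the polycomb list 2 and 4.

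With predicted and clone-named genes left out (AI506816, given with the genes that left the floor, rose by more), the largest rise without overlap was that of Mt1, a metallothionein that binds zinc and copper. It read 5.66, 5.74 and 4.79 in normal and 10.46 and 10.67 in pre-tumor thymocytes, 35.9-fold higher (5.17 on the log2 scale, SE 0.36, adjusted p = 0.000921). Its neighbour in function Mt2 went from 4.87, 3.86 and 5.06 to 8.15 and 8.49, 13.2-fold higher (adjusted p = 0.0259, and 0.158 without pre-tumor replicate 2). Both were also high in the lymphomas, with means of 9.66 and 10.84 for Mt1. The largest fall was of Usp17ld, a deubiquitinase gene, from 9.80, 10.03 and 10.99 to 6.68 and 6.25 (-3.81, adjusted p = 0.00468). Other large falls were Dhrs3, a retinal reductase, by 3.54, the transporter gene Slc16a5 by 3.30, the surface antigen gene Ly6d by 3.29 and Glcci1, a glucocorticoid-induced gene, by 3.09. Glcci1 had pre-tumor values of 9.53 and 7.23, against 11.41 to 11.52 in normal, and did not pass without pre-tumor replicate 2.

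Among probe sets with a single gene symbol, 5 genes had all 3 normal arrays at the floor and both pre-tumor arrays at least 1 above it, and 0 genes showed the reverse. The rule used the same values that limma tests, and floor values have no spread. The adjusted p of these genes against normal is therefore no separate support. AI506816, a gene of unknown function, read 8.91 and 8.52 in pre-tumor cells, at least 5.40 above normal on the log2 scale, or at least 42.1-fold (adjusted p = 0.000426). Its identity is uncertain, since the 6 named genes among the 10 neighbouring probe set numbers lie on chromosome 1 and RefSeq places AI506816 on chromosome 5. It was as high in Dnmt3b-deficient lymphomas, at 8.93, 7.97 and 8.87, and at the floor or 3.45 in wild-type lymphomas. Nr1h5, a nuclear receptor of the FXR family, read 6.77 and 7.97. Sycp1, a protein of the synaptonemal complex, read 6.52 and 7.83, stayed at 3.32 in each of the 3 wild-type lymphomas and read 7.19, 7.03 and 3.41 in the Dnmt3b-deficient ones. Nr1h5 and Sycp1 are neighbours on chromosome 3, and an unnamed probe set numbered next to them rose by 4.31 (adjusted p = 0.0306). The unnamed probe set also read 4.76, 8.38 and 6.41 in wild-type lymphomas, beside means of 6.51 there and 7.77 in Dnmt3b-deficient lymphomas. Bmpr1a, a BMP receptor, reached 4.71 and 4.99. The calls of Nr1h5 (0.0291), Sycp1 (0.041) and Bmpr1a (0.0404) were each lost on leaving out any 1 of the 5 thymocyte arrays, with adjusted p up to 0.202, 0.26 and 0.227 without pre-tumor replicate 2.

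Rps6ka6, a kinase of the RSK family, was the one of the 5 seen in pre-tumor thymocytes and in no other group. It read 5.97 and 6.62 there and was at the floor in all 3 normal and all 6 lymphoma arrays. The difference was at least 2.97 from normal (7.85-fold, adjusted p = 0.000426), from Dnmt3b-deficient lymphomas (adjusted p = 0.00116) and from wild-type lymphomas (adjusted p = 0.000867). These 3 comparisons share the pre-tumor arrays. With all other arrays at the floor, only the 2 pre-tumor arrays give any spread, and the fit averages it over 4 groups. The 3 adjusted p therefore understate the spread of the pre-tumor arrays and are no separate support. In the fit of 5 arrays the limma adjusted p against normal was 0.02735. A like pattern, named after values were seen, was that of Akr1c18, a steroid reductase, which read 4.71, 4.56 and 4.59 in normal, 5.72 and 6.47 in pre-tumor cells and the floor in all 6 lymphomas.

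A family of zinc finger genes on chromosome 4, chosen after values were seen, rose in the pre-tumor arrays. Of 14 probe sets for it 7 rose, by 0.76 to 3.30, and the other 7 were at or near the floor. For 5 of the 7 the probe set matches several of these related genes, so the member cannot be told. Zfp991, a member with a probe set of its own, went from 4.02, and the floor on the other 2 normal arrays, to 6.74 and 6.97, at least 3.30 higher (adjusted p = 0.00198). All 7 were lower in wild-type lymphomas than in pre-tumor cells by limma, and 2 of the 7 were lower in Dnmt3b-deficient lymphomas. The call of Zfp991 against wild-type lymphomas was lost in 9 of the fits that leave out 1 array, with an adjusted p of up to 0.1495 without pre-tumor replicate 2.

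**Figure D5:**
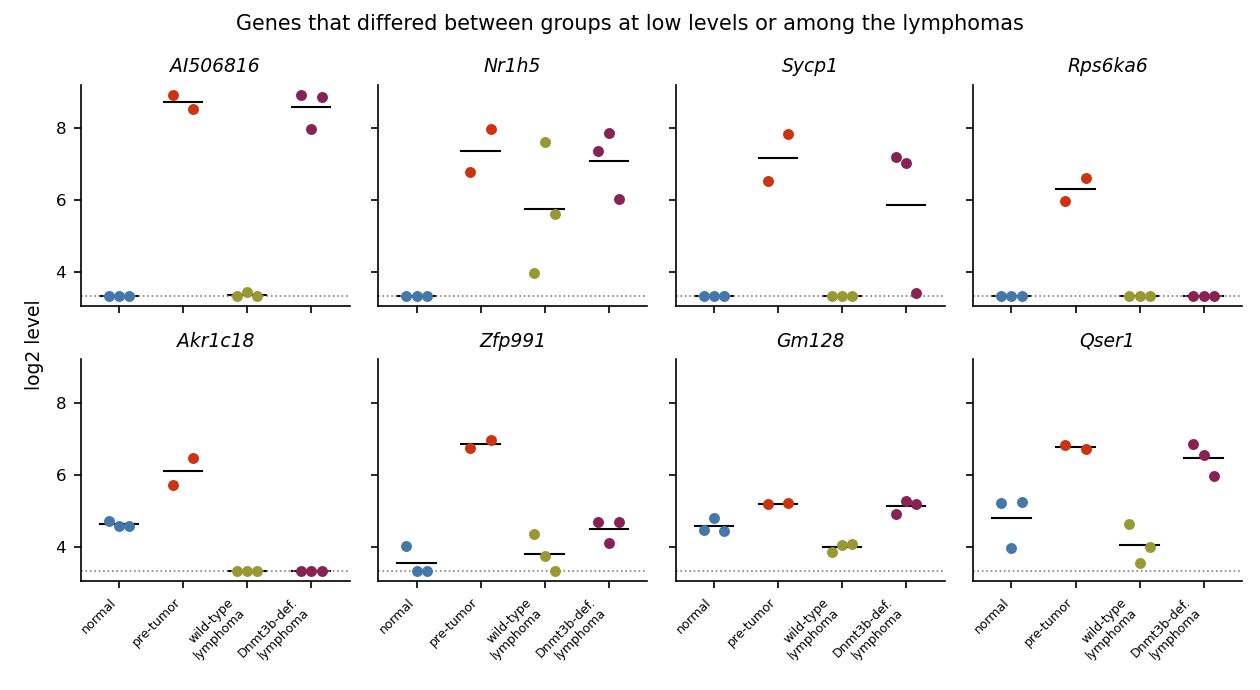
Panels give log2 levels on all 11 arrays of AI506816, Nr1h5, Sycp1, Rps6ka6, Akr1c18, Zfp991, Ment (Gm128) and Qser1, with group means as bars and the floor of 3.32 as a dotted line. Rps6ka6 and Akr1c18 are above the floor in pre-tumor cells and at it in the 6 lymphomas, and AI506816 is high in both groups without Dnmt3b.

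Beside the lymphomas the pre-tumor arrays differed in few probe sets. By limma 20 of 28939 (0.0691%) differed between Dnmt3b-deficient lymphomas and pre-tumor thymocytes, 9 higher (0.0311%) and 11 lower (0.038%) in the tumors. For wild-type lymphomas the number was 31 (0.107%), with 8 higher (0.0276%) and 23 lower (0.0795%). These splits were not stable. For Dnmt3b-deficient lymphomas the split was 8 higher and 21 lower with centred arrays and 0 and 9 with quantile normalization. Without Dnmt3b-deficient lymphoma replicate 1 it was 97 higher and 21 lower, without replicate 2 35 and 16, and without replicate 3 18 and 12. Without pre-tumor replicate 1 it was 23 and 91, and without replicate 2 10 and 42. For wild-type lymphomas the split was 103 and 45 without wild-type lymphoma replicate 3, 16 and 96 without pre-tumor replicate 1 and 12 and 46 without pre-tumor replicate 2. Correlations of pre-tumor arrays were 0.971 to 0.98 with Dnmt3b-deficient and 0.972 to 0.984 with wild-type lymphomas. Means of Npm1 were 10.11 and 10.23 in wild-type and Dnmt3b-deficient lymphomas, near the pre-tumor values of 10.30 and 10.81. Some genes that fell before tumors were lower still in them. Dntt had means of 3.65 in wild-type and 4.42 in Dnmt3b-deficient lymphomas, and was 3.95 lower in the wild-type ones than before tumors (adjusted p = 0.0251). Gstk1, a mitochondrial glutathione transferase named after values were seen, read 5.70, 5.82 and 5.52 in normal and 4.57 and 4.76 in pre-tumor cells, and was 1.06 lower in Dnmt3b-deficient lymphomas (adjusted p = 0.0294) and 1.25 lower in wild-type ones (adjusted p = 0.00801). Tcp11l2, also named after values were seen, fell by 1.04 before tumors and was a further 1.23 lower in Dnmt3b-deficient lymphomas (adjusted p = 0.0368). The lymphoma calls of Dntt, Gstk1 in the Dnmt3b-deficient tumors and Tcp11l2 were lost on leaving out single arrays, with adjusted p up to 0.0812, 0.0787 and 0.0879. Counts moved from 8 to 118 for the Dnmt3b-deficient and from 15 to 148 for the wild-type lymphomas when single arrays were left out, so few calls here do not show that the groups are alike.

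The letters CACGTG were more frequent in promoters of genes that rose. They were found in 13.4% of 1895 windows of genes called higher (Wilson 95% interval 11.94% to 15.01%), 8.96% of 2389 windows of genes called lower (7.88% to 10.17%) and 8.26% of all 19116 windows. The motif reads the same on both strands. In the ribosome biogenesis list 10 of 54 windows held it (18.52%, Wilson 95% interval 10.38% to 30.84%). In the double-positive list it was 0 of 27 windows of 12 genes (0% to 12.46%), an interval that takes in the 8.26% of all windows. The windows of these 2 lists held a median of 21 and 6 CG sites, and CACGTG itself holds a CG. The part of CG content in the counts was not tested. Of the 36 ribosome biogenesis genes that rose 33 had a promoter in the table, and 5 of these held the motif. Of the 30 largest rises and falls without overlap 21 had a promoter, and 2 rises and 0 falls held it. Genes called higher also had more CG sites, with a median of 23 a window against 19 for genes called lower and 15 for all. The windows of 1 gene overlap, and intervals cover counting error only.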

How the data were processed

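RNA (TRIzol, then RNeasy) was labelled and hybridised to 1 Affymetrix whole-transcript array a sample, per the labels' protocols. The deposited table holds the authors' log2 values, and the submitters' processing notes name RMA and Partek; the sources used here do not give the genome build. Of 35512 probe sets, 6573 with low ID numbers and no gene were left out as likely control probe sets, which the table does not state. Of the 28939 tested, 21789 had 1 gene symbol, 1621 several and 5529 none; genes were named only from the first kind, through the brightest of their probe sets. Samples were grouped by their titles.

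limma 3.58.1 (R 4.3.3) was fitted to all 11 arrays in 4 groups, with 3 contrasts and Benjamini-Hochberg adjustment over all probe sets at 0.05. The p-values measure the spread between these samples. On simulated data 56.0% of 100 probe sets changed by 1 and 86.0% of 100 changed by 2 on the log2 scale were recovered, with 11 unchanged ones called. The changed ones were few among 28939, lay above the floor and had independent noise. In the data 19.6% were called, so these rates check the fit and need not hold for this comparison. Named genes were fixed ones (Dnmt genes, Myc, Ment, Qser1), the 15 largest rises and falls without overlap (leaving out predicted or clone-named genes, small RNAs and receptor segments), up to 6 called or defining members of each list, genes that left the floor and the widest gaps between pre-tumor arrays. Others are marked as chosen after their values were seen. The members and lists were chosen with earlier results of these data known. Nothing in the labels says that replicate numbers pair the samples, so the main fit did not use them. Alternatives changed the normalization, filter, moderation, threshold, samples and block, and left out each array.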

Additional observations from a re-analysis of the deposited data

Results flagged for a closer look

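The 6573 probe sets left out of the tests, which carry no gene, had a median log2 level of 4.74 on pre-tumor replicate 2. It drew attention because it lay above the normal arrays, which read 4.36, 4.32 and 4.45. Pre-tumor replicate 1 read 4.45 and the lymphomas 4.26 to 4.51. Pre-tumor replicate 2 is also the array without which the fewest probe sets were called. Whether the higher signal plays a part in its distance from the normal arrays was not tested. Groups of 2 and 3 arrays are too small for the check for single outlying samples.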

How the results depend on the processing

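Pre-tumor and normal thymocytes differed in 5662 probe sets. The number was 2250 in the fit of the 5 arrays alone and 2486 with a 2-fold minimum, and from 1712 to 5636 when 1 array was left out. In 7 alternatives of scaling, filter and moderation it was 5051 to 6640. Centring the arrays on their medians shifted the median difference by 0.08 and moved the split from 2804 higher and 2858 lower to 3366 and 2450.

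Dnmt3b-deficient lymphomas differed from pre-tumor cells in 20 probe sets. The number was 9 with quantile normalization, 7 without moderation, 2 with only these groups, 8 with a 2-fold minimum and 8 to 118 with 1 array left out. Wild-type lymphomas differed in 31. The number was 48 with centred arrays, 51 without probe sets at the floor, 85 without dim ones, 17 without moderation, 19 with only these groups, 20 with a 2-fold minimum and 15 to 148 with 1 array left out. The cause of these moves was not tested, beyond the fewer probe sets or samples that some settings use by construction.

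With the replicate number as a block the 3 counts were 3269, 4 and 7. Deviations from the group mean were correlated for 15 pairs of samples with the same number. The r ran from -0.33 to 0.32, and 3 were above 0.1. Pre-tumor arrays and Dnmt3b-deficient lymphomas gave 0.12 for replicates 1 and 0.32 for replicates 2, while normal and pre-tumor arrays gave -0.17 and -0.26. Pairs of unlike number were not compared, so whether the numbers pair samples is not settled.

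Of 261 named genes, which leave out those named for the gap between the pre-tumor arrays, 259 were called, and 72 of these kept their call in every alternative they were run in, which was 21 for 71 of them and 20 for E2f5, left out as dim in one. Calls were lost for 148 without pre-tumor replicate 2, 135 in the fit of 5 arrays, 59 with the block, 58 without normal replicate 2, 50 without normal replicate 1, 42 with a 2-fold minimum, 39 without pre-tumor replicate 1 and 29 without normal replicate 3. The call counts of the 55 lists moved by over 1.5 times in 46 lists without pre-tumor replicate 2, 35 in the fit of 5 arrays, 22 with a 2-fold minimum, 20 with the block, 11 without pre-tumor replicate 1, and 16, 18 and 4 without normal replicates 1, 2 and 3. No difference of a called named gene changed sign, but which direction held more calls did change in each contrast: from 2804 higher and 2858 lower to 2019 and 1849 without normal replicate 2 and 2843 and 2395 without pre-tumor replicate 1, and for wild-type lymphomas from 8 and 23 to 11 and 8 with only these groups. The share of promoters with CACGTG was 12.75% with a 2-fold minimum. The number of arrays, 2 in one group, limits the precision, and the values at the floor carry only a bound.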

Other observations

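Histone genes, a family added after the values were seen, were lower in pre-tumor thymocytes while replication genes were higher. Of 36 measured histone genes 19 fell and 0 rose, with a median difference of -0.94, beside 11.4% of all genes called lower. H1f2, a linker histone, read 8.51, 8.60 and 8.38 in normal and 5.83 and 6.40 in pre-tumor cells, a fall of 2.38 (limma adjusted p = 0.00487), and the variant H2az2 fell by 1.53 (adjusted p = 0.0014). Of 54 small nucleolar RNA genes 5 rose and 10 fell, of 300 microRNA genes 2 rose and 14 fell, and of 347 zinc finger genes named Zfp 60 rose and 41 fell. Of all genes 9.66% were called higher and 11.4% lower, and the microRNA genes lay below both shares.

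The pre-tumor arrays differed by over 1 on the log2 scale in some genes whose normal arrays spanned less than 0.5. Of 17003 such genes, 93 were higher and 37 lower by that much in replicate 2. Rpl39l, a testis-enriched ribosomal protein gene, was at the floor in replicate 1 and read 6.12 in replicate 2. Islr read 6.99 and 4.92, Gm4779 3.97 and 6.0, Pnldc1, which trims piRNAs, 3.88 and 5.71, and Bccip, a BRCA2-binding protein gene, 6.36 and 7.96. These values have no test.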
